A study of Mus musculus with 16 samples.

Results

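Cells of the stromal vascular fraction of interscapular brown adipose tissue were compared between mice kept at 5 °C for 7 days (cold7, 4 libraries) and mice kept at room temperature, 22 °C for 1 week (RT, 4 libraries). The libraries were chosen by the sample column of the per-cell tables, which gave 8 of the 16 libraries of the series, with 20882 cold7 cells and 22219 RT cells of 109723 cells in all. A smaller table, in which every cell carries a cluster name, held 2933 cold7 cells and 7025 RT cells of 24352. All mice were C57BL6J, and both groups went through the same digestion, removal of floating adipocytes, red cell lysis and dead cell removal before droplet capture with the Chromium 3' v3 chemistry. The other 8 libraries came from mice at 30 °C (TN) and from mice after 2 days at 5 °C (cold2), and they entered the fits to estimate the spread. The labels used here state no age, no sex and no genotype beyond the strain, and they do not say whether a library came from 1 animal or from a pool. The p-values therefore measure the spread between libraries.

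Brown adipose tissue burns fuel to make heat, and cold activates it through sympathetic nerves. Besides adipocytes, its stroma holds endothelial cells, mural cells of the vessel wall, Schwann cells of the nerves, immune cells and progenitors that can become adipocytes. Cold exposure over days is known for proliferation of progenitors and endothelium in this depot. A cell cycle score compares the expression of genes typical of S phase, when DNA is copied, or of G2 and M phase, when the cell prepares and carries out division, with that of control genes. In both tables the calls followed a rule in all 43101 and 9958 cells: a cell was G1 when both scores were below 0 and otherwise took the phase of the higher score. A call of S or G2M therefore needs only 1 score at or above 0, and no division is read from it here. The question was whether the scores, the calls, the mitochondrial share of the counts and the depth differed between 7 days of cold and room temperature within clusters, that is, apart from a shift in the mix of clusters.

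The clusters were those of the tables: 19 coarse clusters of all cells (resolution 0.1) and 28 named clusters. The names use abbreviations such as VSM, AP, EC, ECAP and Adipo that the tables do not spell out, and they are used as they stand. The tables hold no expression of single genes, so no name was checked against its markers. In the whole series, cluster 2 held 86.1% VSM cells, cluster 9 held 90.6% AP cells, and cluster 4 held 44.2% EC and 27.7% ECAP cells. Clusters 0, 1, 5, 6, 8 and 13 held no named cell. A cluster was tested when each of the 8 libraries had at least 10 of its cells, which left 11 coarse and 7 named clusters.

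Depth differed more between libraries of a group than between the groups. The 4 RT libraries had median counts of unique molecular identifiers (UMIs) per cell of 7324, 4984, 1978.5 and 2876.5 (replicates 1 to 4), and the 4 cold7 libraries had 4093, 4936.5, 2491.5 and 3081. RT replicate 3 stood apart in 2 ways: it held exactly 10000 cells, and its lowest UMI count was 1031, against 800 to 808 in the other 7. RT replicate 4 had a median mitochondrial share of 6.01%, the highest of its group, whose mean was 3.93 ± 1.397% (SD, n = 4), while cold7 had 3.93 ± 0.561% (SD, n = 4). At most 30 cell barcodes were shared by any pair of the 8 libraries. The 2 tables gave the same phase call to 56.3% of the 9958 named cells, so each table was compared only within itself.

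Over whole libraries, with the clusters as they came, the scores and calls of all cells overlapped between the groups, while the G2M calls of named cells did not. Of all cells, 55.3 ± 13.7% in RT and 55.1 ± 8.33% in cold7 (SD, n = 4 each) were called S or G2M. The mean G2M score was -0.0243 ± 0.0110 in RT and -0.0358 ± 0.00864 in cold7 (SD, n = 4 each; two-sided exact permutation test, p = 0.2, adjusted p = 1 over 9 measures). The smallest p that 4 libraries against 4 allow in this test is 0.0286. Among named cells, the share called G2M was 27.6 ± 3.21% in RT and 17.8 ± 1.33% in cold7, and the median mitochondrial share was 7.83 ± 1.98% and 4.85 ± 1.18% (SD, n = 4 each). The G2M shares were 26.5, 29.9, 30.4 and 23.5% in the RT libraries and 18.9, 17.6, 18.7 and 15.96% in the cold7 libraries, with no overlap. The exact permutation test gave p = 0.0286 for each of these 2 measures, and the adjusted p of 0.129 missed the threshold of 0.05.

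Once the libraries were put on a common mix, the cold7 libraries had lower scores and fewer S or G2M calls. Each library's value was recomputed as if all 8 libraries held the 11 tested coarse clusters, 40276 cells, in the same proportions. The proportion of cells called S or G2M was then 62.8, 61.6, 62.1 and 61.0% in the RT libraries and 51.2, 49.0, 53.0 and 52.1% in the cold7 libraries. The groups no longer overlapped, and the mean fell by 10.5 percentage points, from 61.9 ± 0.777% to 51.3 ± 1.74% (SD, n = 4 each; exact permutation test, p = 0.0286, adjusted p = 0.0381 over 8 measures). In the same cells with the mix as it came, the shares were 55.2 ± 13.7% and 57.1 ± 7.08% (exact permutation test, p = 0.914). The spread between RT libraries was thus far smaller on the common mix.

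The scores moved with the calls on the common mix. The mean G2M score was -0.0180 ± 0.00354 in RT and -0.0418 ± 0.00294 in cold7, and the mean S score was 0.00584 ± 0.00162 and -0.0102 ± 0.00365 (SD, n = 4 each; exact permutation test, adjusted p = 0.0381 for each score). The mean mitochondrial share was 5.52% in RT and 5.89% in cold7 (exact permutation test, p = 0.771). The clusters that set the mix varied widely within a group. Cluster 2 took 33.6, 30.7, 12.97 and 6.88% of the RT libraries and 2.68, 7.84, 3.26 and 8.76% of the cold7 libraries. Cluster 0 took 18.8, 22.4, 47.1 and 39.8% of the RT libraries and 47.4, 36.3, 50.4 and 29.9% of the cold7 libraries. Cluster 2 lay low on both scores, and the G2M score of cluster 0 lay nearer to 0.

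**Figure D1:**
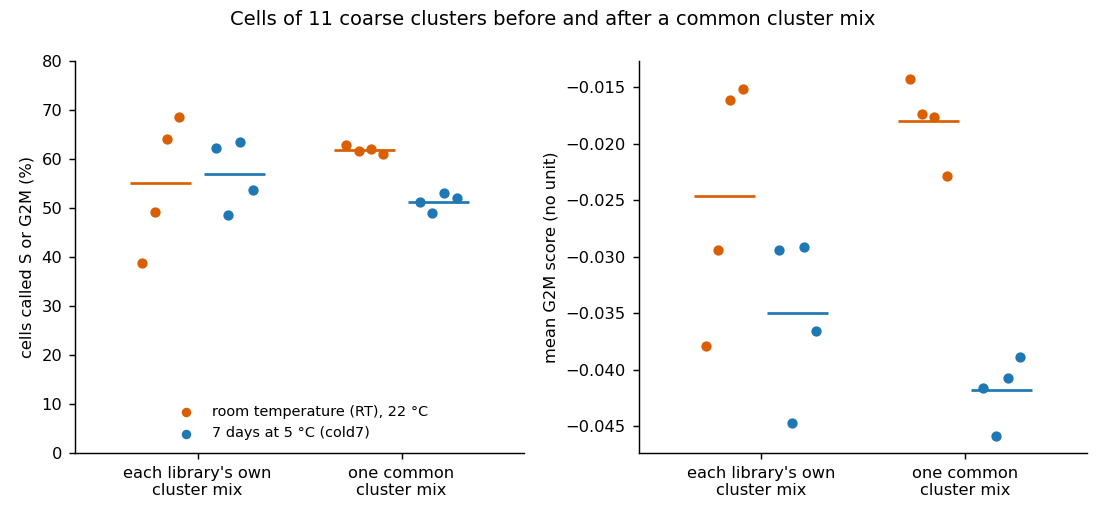
Share of cells called S or G2M (percent, left) and mean G2M score (right) per library, with the coarse clusters as they came and on a common mix; points are libraries and bars are group means. On the common mix the 4 RT libraries lie at 61.0 to 62.8% and the 4 cold7 libraries at 49.0 to 53.0%.

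Within clusters, the G2M score was lower after 7 days of cold in 6 of the 11 coarse clusters tested (54.5%; limma, Benjamini-Hochberg adjusted p below 0.05) and higher in none. The difference had a negative sign in 10 of 11, with a median of -0.0170. Cluster 0, the most populous, had mean scores of -0.000267, -0.00194, -0.00861 and -0.0159 in the RT libraries and -0.0317, -0.0364, -0.0302 and -0.0353 in the cold7 libraries. Every cold7 library lay below every RT library, and the mean went from -0.00668 ± 0.00713 to -0.0334 ± 0.00292 (SD, n = 4 each; difference -0.0268 ± 0.00399 SE; limma, adjusted p = 3.31e-05).

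Cluster 1 had the narrowest RT spread of the clusters tested. Its RT libraries had mean G2M scores of 0.00359, 0.0043, 0.00171 and 0.00375, and its cold7 libraries had -0.0177, -0.0275, -0.0195 and -0.0195 (limma, adjusted p = 4.7e-05). All RT libraries were above 0 and all cold7 libraries below 0. Cluster 5 showed the same split except that its level in RT was a little higher, 0.00778, 0.0111, 0.00808 and 0.000602 against -0.0131, -0.016, -0.0165 and -0.00781 in cold7 (limma, adjusted p = 0.000685). No cell of clusters 0, 1 and 5 has a name in the smaller table.

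Cluster 2, made mostly of VSM cells, had the lowest G2M scores of the 4 clusters so far and the largest difference. The RT libraries had -0.0757, -0.0717, -0.0657 and -0.0734, and the cold7 libraries had -0.109, -0.109, -0.0991 and -0.0953 (difference -0.0315 ± 0.00423 SE; limma, adjusted p = 1.84e-05). The calls in clusters 0, 1, 2 and 5 were kept when any 1 of the 16 libraries was left out. The count of lower clusters was 4 without RT replicate 3, which stood apart in cell number and lowest UMI count, and also 4 without cold7 replicate 1 or 2. Clusters 8 (difference -0.0167, limma adjusted p = 0.0437) and 13 (-0.0164, adjusted p = 0.0481) were near the threshold, and lost it in 8 and 10 of the 16 leave-outs.

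The other coarse clusters did not pass on the mean score. In cluster 4, which holds EC and ECAP cells, the RT libraries had -0.0456, -0.0469, -0.0431 and -0.0537 and the cold7 libraries -0.0571, -0.0703, -0.0684 and -0.0615. The libraries of the 2 groups did not overlap, yet the limma adjusted p was 0.0908. Complete separation, all cold7 libraries below all RT libraries, was present in clusters 0, 1, 2, 4, 5 and 8, again 6 of 11 (54.5%). Cluster 6 differed by -0.0210 (limma, adjusted p = 0.0908), cluster 7 by -0.0104 (0.290) and cluster 9, of AP cells, by -0.0170 (0.0669). With medians in place of means, clusters 4, 6 and 9 were lower in cold7 (limma, adjusted p = 6.57e-08, 0.0130 and 0.000679). Cluster 7 did not pass with medians, and cluster 13 no longer passed (limma, adjusted p = 0.0656). Cluster 3 had the opposite sign and is described below with its composition. With clusters admitted on 10 cells in 3 of the 4 libraries of a group, 7 of 16 coarse clusters passed (43.8%).

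**Figure D2:**
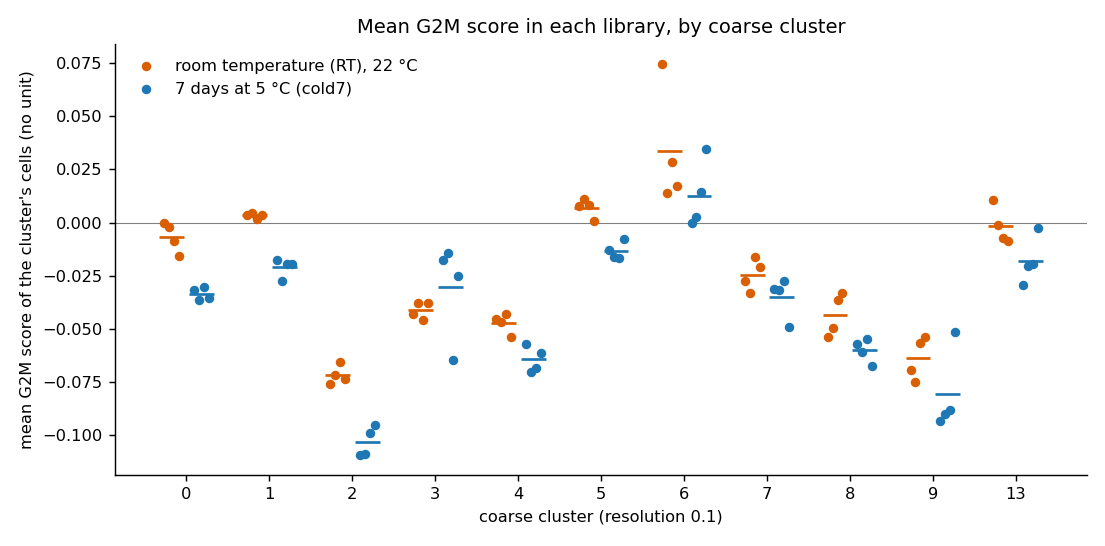
Mean G2M score per library in the 11 tested coarse clusters, for RT and cold7; points are libraries and bars are group means. The 4 cold7 libraries lie below the 4 RT libraries in clusters 0, 1, 2, 4, 5 and 8, while cluster 3 has 3 of its 4 cold7 libraries above the RT libraries.

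Much of the lower score was common to the clusters of a library. With each library's mean over the tested clusters subtracted, so that only differences between clusters were left, 2 of 11 coarse clusters passed by limma: cluster 2 with a difference of -0.0142 and cluster 3 with 0.0282 (adjusted p = 0.0206 for each). On that scale clusters 0, 1 and 5 did not pass, at -0.00943, -0.00707 and -0.00294. Clusters 8 and 13 lay close to the library mean, at 0.000662 and 0.000918. The subtraction sets the mean over the tested clusters to 0, so these positive values are not higher scores in cold7.

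In cluster 0 the lower score was present at the low, middle and high end of its cells. The mean over libraries of its 10th percentile went from -0.0683 in RT to -0.0957 in cold7, the median from -0.00933 to -0.0366, and the 90th percentile from 0.0573 to 0.0303. In cluster 2 the 90th percentile was -0.0326 in RT and -0.0700 in cold7. Against all other libraries of the series, TN and cold2 included, the 4 cold7 libraries had the lowest G2M scores of all 16 in clusters 0, 1, 2, 4, 5 and 8. In cluster 0 the group means were -0.0154 in TN, -0.00668 in RT, -0.00485 in cold2 and -0.0334 in cold7. The calls had another order there, with 64.1% S or G2M in TN, 76.1% in RT, 74.9% in cold2 and 61.8% in cold7.

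Depth sets how well a score is measured, and single cells could not be thinned because only totals are in the tables. The test was therefore repeated on cells with 2000 to 4000 UMIs. In this window 5 coarse clusters could be tested and the G2M score was lower in cold7 in all 5 by limma. The differences were -0.0269 in cluster 0, -0.0258 in cluster 1, -0.0254 in cluster 4, -0.0219 in cluster 5 and -0.0139 in cluster 6. Replicates 1 and 2 had a higher median depth than 3 and 4 in both groups, with no label that says why. The shares of clusters 0 and 2 split the same way in RT but not in cold7. Within replicates 1 and 2 alone, 6 coarse clusters were lower in cold7 and 1, cluster 3, was higher. Within replicates 3 and 4 alone, clusters 0, 1, 2 and 8 were lower.

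The S score fell in 2 of 11 coarse clusters (18.2%; limma, adjusted p below 0.05). In cluster 2 it went from -0.0493 ± 0.00601 to -0.0944 ± 0.0126 (SD, n = 4 each; difference -0.0452; limma, adjusted p = 1.13e-05), and in cluster 1 from 0.0376 ± 0.00322 to 0.0230 ± 0.00649 (limma, adjusted p = 0.0398). The call in cluster 1 was lost in 8 of the 16 leave-outs. The count itself moved with the settings: 6 of 11 clusters passed with medians in place of means and with a term for replicates 1 and 2 against 3 and 4, all of them lower, and 6 without cold7 replicate 3, of which 5 were lower and 1 higher. The S score differences of the others ran from -0.0235 in cluster 4 to 0.0134 in cluster 3.

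The proportion of cells called S or G2M fell in 4 of 11 coarse clusters (36.4%; limma on the log2 odds, adjusted p below 0.05). In cluster 0 it was 80.6, 78.2, 73.3 and 72.3% in the RT libraries and 63.0, 60.6, 63.9 and 59.5% in the cold7 libraries (log2 odds ratio -0.99, adjusted p = 0.00428). In cluster 1 it was 91.0, 89.96, 84.7 and 89.0% in RT and 76.8, 70.8, 78.7 and 80.8% in cold7 (log2 odds ratio -1.24, adjusted p = 0.00428). With each library's mean over clusters subtracted, none of the 4 clusters passed (log2 odds ratios -0.29 in cluster 0, -0.55 in cluster 1, -1.18 in cluster 2 and -0.30 in cluster 4). On that scale the only cluster that passed by limma was cluster 3, higher at 1.34 (adjusted p = 0.0156). Its difference without the subtraction was 0.64 and did not pass (limma, adjusted p = 0.133).

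Clusters 2 and 4 also had fewer calls, and each lost significance without some single libraries. In cluster 2 the share was 5.45, 8.20, 16.7 and 6.71% in RT and 3.05, 0.733, 6.45 and 1.55% in cold7 (log2 odds ratio -1.88; limma, adjusted p = 0.0184). Without cold7 replicate 2 the adjusted p was 0.0884 and without RT replicate 3 it was 0.0544. In cluster 4 it was 30.8, 28.7, 37.5 and 47.9% in RT and 18.5, 17.8, 23.1 and 29.0% in cold7 (log2 odds ratio -0.99; limma, adjusted p = 0.0315), and leaving out cold7 replicate 1 or 2, or RT replicate 3 or 4, lost the call. Within replicates 3 and 4 alone none of the 11 clusters passed by limma, with 2 at an unadjusted p under 0.05.

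Cluster 3 went the other way, and its composition differed between the groups. In the whole series 77.3% of its cells have no name, 13.01% are Adipo and 8.996% VSM-AP. In the 8 libraries, VSM-AP cells were 93.5, 91.6, 85.6 and 21.6% of the cluster in RT and 25.6, 33.3, 32.1 and 23.8% in cold7. Cells without a name were 50.0, 27.8, 42.9 and 56.0% of it in cold7. Its G2M score was -0.043, -0.0378, -0.0458 and -0.038 in the RT libraries and -0.0174, -0.0143, -0.0644 and -0.0249 in the cold7 libraries, higher in 3 of 4 and lower in cold7 replicate 3 (difference 0.0109; limma, adjusted p = 0.218). Among only the VSM-AP cells of the cluster the mean G2M score was -0.0450 in RT and -0.0539 in cold7. The part of the changed composition in the cluster's values was not tested.

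The same change of composition touched the mitochondrial share of cluster 3. Its median was 37.0, 32.0, 27.6 and 48.0% in the RT libraries and 25.0, 27.3, 23.1 and 23.1% in the cold7 libraries, with no overlap (log2 difference -0.53; limma, adjusted p = 0.161). Within its VSM-AP cells the order was the reverse, 27.7 to 38.8% in the RT libraries and 41.5 to 56.3% in the cold7 libraries.

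Among the named clusters the G2M score fell in 2 of 7 (28.6%; limma, adjusted p below 0.05), both of them VSM. VSM_0 had -0.00588, -0.00382, 0.00105 and -0.00843 in the RT libraries and -0.0477, -0.0412, -0.0412 and -0.0328 in the cold7 libraries (difference -0.0365 ± 0.00339 SE; limma, adjusted p = 7.04e-07). VSM_3 had -0.0238, -0.0179, -0.0126 and -0.0139 in RT and -0.044, -0.0534, -0.0412 and -0.0402 in cold7 (difference -0.0277; limma, adjusted p = 1.65e-05). In both clusters all cold7 libraries lay below all RT libraries. The means of VSM_0 were -0.00729 in TN, -0.00427 in RT, -0.0195 in cold2 and -0.0407 in cold7, and the 4 cold7 libraries lay below all 11 others with named cells.

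The remaining tested named clusters did not pass on the G2M score. VSM_1 differed by -0.0208 (limma, adjusted p = 0.179), and cold7 replicate 1, with 17 cells there, stood at 0.0211. EC_15 differed by -0.0200 (adjusted p = 0.0682), EC_10 by -0.0139, VSM-AP_6 by -0.00490 and AP_8 by 0.0216. When the median score of a library took the place of its mean, 5 of the 7 clusters passed. AP_8 then had the opposite sign, at -0.00892, and did not pass (limma, adjusted p = 0.0939). With clusters admitted on 3 of 4 libraries, 6 of 17 passed (35.3%), all lower in cold7. They were VSM_0, VSM_3, VSM_2 (-0.0355), VSM_22 (-0.0315), VSM_7 (-0.0288) and Schwann_18 (-0.0186). On the scale with the library mean subtracted, VSM_0 (-0.0219; limma, adjusted p = 0.000441) and VSM_3 (-0.0131, adjusted p = 0.0251) still passed.

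With that rule and a term for replicates 1 and 2 against 3 and 4, the same 6 clusters passed on the G2M score by limma. The share called S or G2M then fell in 8 of 17: VSM_0, VSM_1, VSM_3, EC_15, VSM_2 (log2 odds ratio -2.29), EC_11 (-1.19), VSM_7 (-1.10) and VSM_22 (-0.91). The S score was lower in VSM_0, VSM_1, VSM_2 (-0.0122) and VSM_7 (-0.0132) and higher in AP_9 (0.0151) and Schwann_14 (0.0139). The median depth of VSM_21 was lower (log2 difference -0.94; limma, adjusted p = 0.0309), and the mitochondrial share of Pericyte_12 was higher (log2 difference 0.58, adjusted p = 0.0437). For AP and Schwann cells the S scores of the all-cell table went the other way, by group means without a test. AP cells of cluster 9 had -0.0462 in RT and -0.0681 in cold7. Schwann cells had -0.0582 and -0.0746 in cluster 14, and -0.0290 and -0.0486 in cluster 16.

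The S score fell in 2 of 7 named clusters (28.6%; limma, adjusted p below 0.05), VSM_0 (difference -0.0142) and VSM_1 (-0.0156), with an adjusted p of 0.0129 for each. AP_8, at 0.0122, and VSM-AP_6, at 0.00564, had the highest differences, and neither passed. The share called S or G2M fell in 4 of 7 (57.1%; limma, adjusted p below 0.05). In 3 of the 7 (42.9%) every cold7 library lay below every RT library.

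VSM_0 went from 63.0, 63.2, 71.9 and 63.0% called S or G2M in the RT libraries to 17.2, 35.1, 36.7 and 47.6% in the cold7 libraries (log2 odds ratio -1.89; limma, adjusted p = 0.000301). VSM_1 went from 67.6, 64.2, 67.8 and 72.5% to 47.1, 35.3, 36.4 and 40.6% (log2 odds ratio -1.64; limma, adjusted p = 0.000419). VSM_3 had 31.6, 43.8, 57.1 and 33.3% in RT and 25.5, 7.32, 28.9 and 19.2% in cold7 (log2 odds ratio -1.55; limma, adjusted p = 0.00273). VSM_3 depended on the table: with the calls that the all-cell table gives to the same cells, its log2 odds ratio was 0.98 (limma, adjusted p = 0.204). EC_15 had 72.4, 75.0, 81.2 and 50.0% in RT and 49.1, 55.6, 54.5 and 50.0% in cold7 (log2 odds ratio -1.11; limma, adjusted p = 0.0217), and leaving out RT replicate 2, RT replicate 3 or cold7 replicate 1 lost this call.

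Named clusters were also added up into classes by the start of their names, and S and G2M calls were then taken apart. The share called G2M changed in 3 of the 5 classes tested (60%; limma, adjusted p below 0.05), and all 3 were lower in cold7. Of VSM cells, 24.2, 27.4, 30.5 and 24.5% were called G2M in the RT libraries and 8.5, 9.12, 8.03 and 9.85% in the cold7 libraries (log2 odds ratio -1.87; limma, adjusted p = 6.36e-06). The 4 cold7 libraries lay within 2 percentage points of each other and far under the RT libraries. This split of the calls depended on the table. By the calls of the all-cell table, cluster 2, mostly VSM cells, did not pass on G2M calls alone (log2 odds ratio -0.58; limma, adjusted p = 0.536). Its S calls alone differed by -2.39 (limma, adjusted p = 0.0691). The clusters inside a class were not in the same proportions in the 2 groups: VSM_21 made up 68 of 4173 VSM cells in RT and 116 of 877 in cold7, EC_11 made up 331 of 941 EC cells and 46 of 444, and Schwann_14 made up 135 of 297 Schwann cells and 276 of 360.

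Within single named clusters the share called G2M fell in 3 of 7 (42.9%; limma, adjusted p below 0.05), VSM_0 (log2 odds ratio -3.02), VSM_3 (-2.23) and VSM_1 (-2.13). It did not pass in EC_10 (-1.02, adjusted p = 0.0573) or EC_15 (-0.93, adjusted p = 0.0668). With clusters admitted on 3 of 4 libraries, 7 of 17 passed (41.2%), all lower in cold7: those 3, VSM_2 (-3.09), VSM_22 (-1.92), VSM_7 (-1.64) and Schwann_18 (-1.33). Schwann_14 (-0.49, adjusted p = 0.396), EC_11 (-0.97, adjusted p = 0.108) and VSM_21 (0.90, adjusted p = 0.108) did not pass.

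EC and Schwann cells as whole classes, whose mix of clusters differed as given, also had fewer G2M calls in cold7. Of EC cells, 29.5, 36.8, 30.8 and 21.3% were called G2M in RT and 19.6, 16.3, 18.9 and 9.09% in cold7 (log2 odds ratio -1.15; limma, adjusted p = 0.00397). Of Schwann cells, 52.0, 55.6, 54.0 and 52.2% were called G2M in RT and 38.1, 32.1, 43.4 and 32.1% in cold7 (log2 odds ratio -0.995, limma adjusted p = 0.00397). By the calls of the all-cell table the sign was the same, but the clusters with these cells did not pass on G2M calls alone. Cluster 4, which holds EC and ECAP cells, differed by -0.43 (limma, adjusted p = 0.141). With clusters admitted on 3 of 4 libraries, clusters 14 and 16, mostly Schwann cells, differed by -0.91 and -0.79 (limma, adjusted p = 0.239 and 0.304). AP cells had 18.1 ± 2.51% and 13.4 ± 2.43% (SD, n = 4 each), and VSM-AP cells had means of 21.4% and 17.2%; neither passed (limma, adjusted p = 0.279 for each).

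The share called S rose in 1 of the 5 classes (20%; limma, adjusted p below 0.05), AP. It was 16.05, 23.7, 37.8 and 14.7% in the RT libraries and 38.4, 31.3, 41.0 and 38.6% in the cold7 libraries (log2 odds ratio 1.04; limma, adjusted p = 0.0230). RT replicate 3 lay within the cold7 range and the other RT libraries lay below it. In single clusters S calls did not pass in AP_8 (1.01; limma, adjusted p = 0.250) or, on 3 of 4 libraries, in AP_9 (0.67, adjusted p = 0.316). The rise was not present in the all-cell table. There the S calls of cluster 9, of AP cells, differed by -0.52 (limma, adjusted p = 0.572). The S score of AP_8 was lower there (-0.0212; limma, adjusted p = 0.0425). VSM cells had mean S shares of 33.3% in RT and 27.1% in cold7, Schwann cells 19.0% and 28.0%, EC cells 39.4% and 43.1%, and VSM-AP cells 34.9% and 36.1%, none of which passed.

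**Figure D3:**
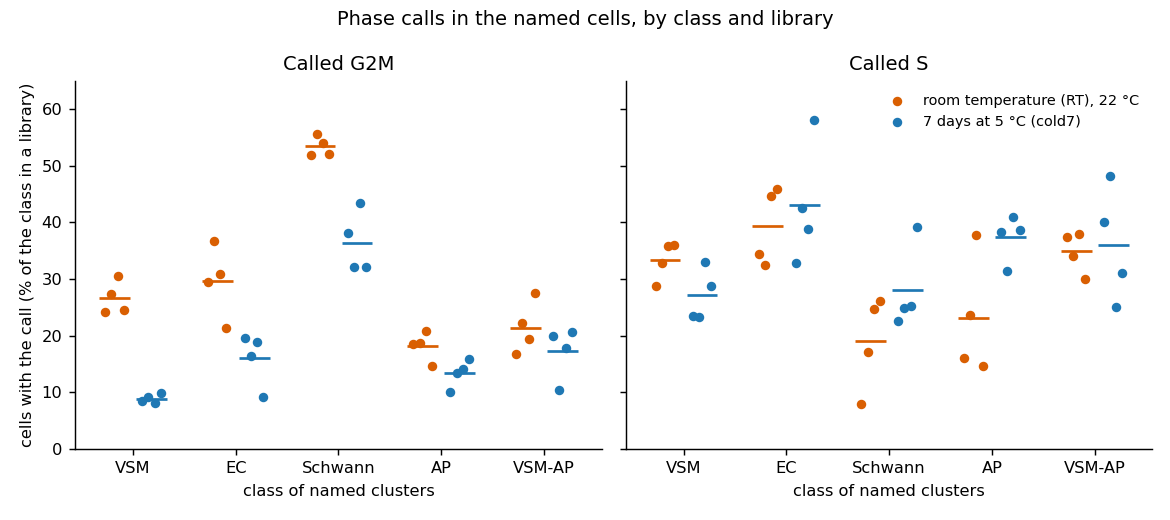
Share of cells called G2M and called S (percent) per library in the 5 classes of named cells tested, for RT and cold7; points are libraries and bars are group means. VSM cells called G2M lie at 24.2 to 30.5% in RT and 8.03 to 9.85% in cold7, and AP cells called S lie at 14.7 to 37.8% and 31.3 to 41.0%.

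On a common mix of the 7 named clusters, 4261 cells, the share called S or G2M was 58.9 ± 5.86% in RT and 42.4 ± 2.51% in cold7, and the mean G2M score was -0.0101 ± 0.00227 and -0.0270 ± 0.00824 (SD, n = 4 each; exact permutation test, adjusted p = 0.0381 for each). The mean S score did not pass (exact permutation test, p = 0.229). The mean mitochondrial share was 9.36 ± 1.55% in RT and 12.5 ± 0.685% in cold7 (SD, n = 4 each; exact permutation test, adjusted p = 0.0381), while with the mix as it came it was 10.3% and 11.1% (p = 0.6). Over all named cells, clusters too small to be tested included, cold7 had the lower median, 4.85% against 7.83%. The results for the scores depended on the common mix chosen. With the mix of the RT libraries the S score was lower in cold7 and passed (exact permutation test, adjusted p = 0.0327). With equal weight for every cluster the G2M score did not pass (exact permutation test, adjusted p = 0.0762).

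Of the named clusters, 1 of 7 (14.3%) changed in its median mitochondrial share (limma on log2 values, adjusted p below 0.05). VSM-AP_6 had 29.7, 23.1, 24.1 and 21.5% in the RT libraries and 51.02, 29.9, 35.6 and 41.1% in the cold7 libraries (log2 difference 0.66 ± 0.219 SE; limma, adjusted p = 0.0422). Every cold7 library lay above every RT library. Cells with at least 20% mitochondrial counts made up 64.4 ± 9.86% of it in RT and 87.4 ± 1.50% in cold7 (SD, n = 4 each). The call was lost in 8 leave-outs, with an adjusted p of up to 0.238 without cold7 replicate 1. The others ran from 0.06 in AP_8 to 0.40 in EC_15 on the log2 scale. Within replicates 1 and 2 alone 5 of 7 were higher in cold7, and within replicates 3 and 4 alone none passed, with 1 at an unadjusted p under 0.05.

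Among the coarse clusters none of 11 (0%) passed on the mitochondrial share by limma, and 1, cluster 3, had an unadjusted p under 0.05. Cluster 2 had medians of 8.53 ± 1.71% in RT and 10.2 ± 0.649% in cold7 (SD, n = 4 each; log2 difference 0.28, adjusted p = 0.722). Its cells with at least 20% mitochondrial counts were 1.16 ± 0.506% in RT and 5.65 ± 1.97% in cold7, without overlap of the libraries.

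UMI depth within clusters passed in 0 of 11 coarse clusters (0%) and in 0 of 7 named clusters (0%) by limma. At an unadjusted p under 0.05 there was 1 coarse cluster, cluster 3 (log2 difference -0.81, adjusted p = 0.134), and no named cluster. The other coarse differences ran from -0.50 in cluster 9 to 0.45 in cluster 2, with 95% intervals that all include 0. Cluster 2 had median depths of 9623 ± 3201 UMIs in RT and 12836 ± 3327 UMIs in cold7 (SD, n = 4 each). In the named clusters VSM_3 (0.53) and VSM_1 (0.47) had the highest log2 differences and EC_10 (-0.45) and AP_8 (-0.34) the lowest. Each has a standard error of 0.33. With each library's mean over clusters subtracted, VSM_3 passed at 0.45 (limma, adjusted p = 0.0294), as did coarse clusters 1 (0.34) and 2 (0.46), higher, and 9 (-0.49), lower. The clusters with clearly lower G2M scores, 0, 1, 2 and 5, had cold7 depths at or above those of RT on average. The 95% intervals of these depth differences include 0. Cluster 2 was not among the clusters tested in the window of UMIs. Beyond that window, the part of depth in the lower scores was not tested.

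**Figure D4:**
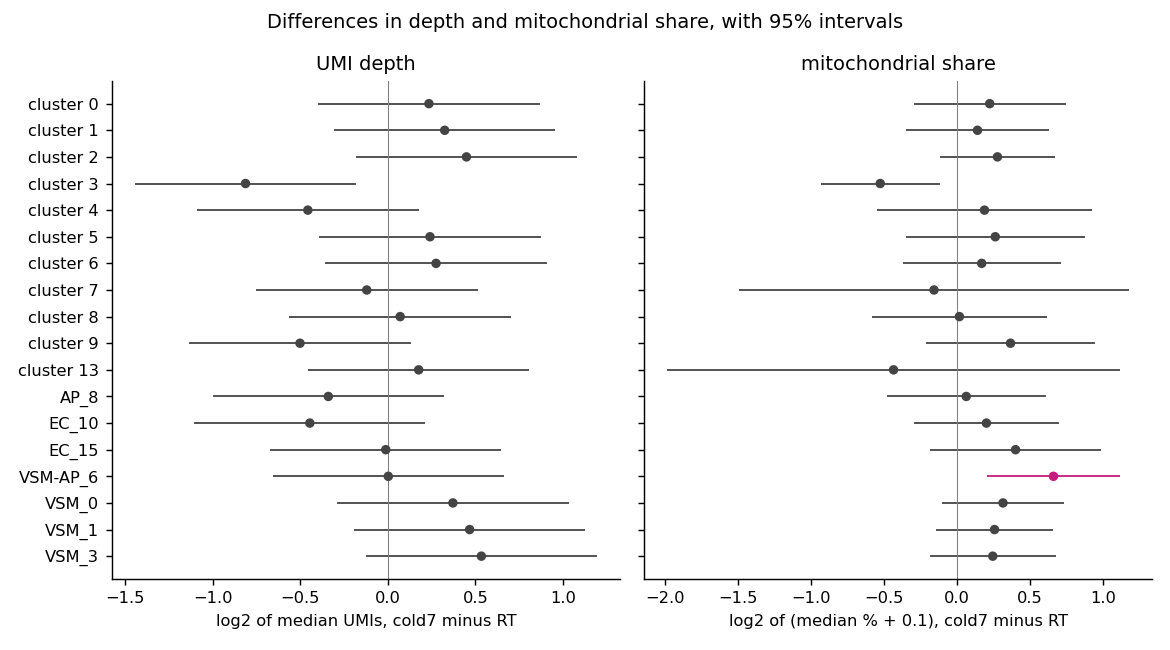
Differences cold7 minus RT in log2 median UMIs (left) and in log2 of the median mitochondrial percent plus 0.1 (right) for the 18 tested clusters; points are limma estimates, lines are 95% intervals, and the coloured point passed the adjusted threshold. VSM-AP_6 lies at 0.66 for the mitochondrial share, and cluster 3 has the lowest values, -0.81 for depth and -0.53 for the mitochondrial share.

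Against the lower mean, a few named cells of cold7 had an S or G2M score above 0.2, far above the means given so far. This level was chosen after the scores had been seen, so the counts are a description with no test. Of VSM cells, 0 of 920, 0 of 1983, 0 of 1131 and 0 of 139 were above it in the RT libraries. Pooled, that is 0 of 4173, for which counting error alone allows a share of up to 0.0719%. This limit leaves out the spread between libraries, and a library of 139 cells allows a higher share by itself. In the cold7 libraries there were 6 of 200, 1 of 296, 2 of 249 and 1 of 132, together 10 of 877 cells or 1.14%. Each cold7 library had at least 1 such cell and cold7 replicate 1 had 6 of the 10. Without that library the mean of the library shares differed between the groups by 0.633 percentage points in place of 1.22.

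Most of these VSM cells came from 1 cluster. VSM_21 held 7 of the 10, with 4 of 28, 1 of 57, 1 of 21 and 1 of 10 of its cells in the cold7 libraries and 0 of 68 in RT. The 10 cells had 1679 to 31039 UMIs, with a median of 9134, and 1.38 to 15.2% mitochondrial counts. The G2M score passed 0.2 in 7 of them and the S score in 6, with a highest G2M score of 1.36, and 9 were also above 0.3 on 1 of the scores. Doublets were not called here, and their part in these counts was not tested. VSM_21 as a whole had median depths of 2960, 6160.5, 3538.5 and 8131 UMIs in RT and 2429.5, 2201, 1561 and 2229.5 in cold7, so its cold7 cells were on the shallow side.

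Cells above 0.2 were also counted in the other classes. Of ECAP cells, 3 of 249, 2 of 175, 0 of 67 and 0 of 6 were above 0.2 in RT and 6 of 31, 1 of 28, 1 of 17 and 4 of 78 in cold7, which is 1.01% of 497 and 7.79% of 154 cells. Of Schwann cells it was 0 of 297 in RT and 5 of 360 in cold7, of EC cells 8 of 941 and 6 of 444, and of AP cells 4 of 397 and 5 of 482. Over all named cells the shares were 0.178, 0.130, 0.366 and 1.12% in the RT libraries and 2.17, 1.03, 1.47 and 1.70% in the cold7 libraries. The groups overlapped, because RT replicate 4 lay above cold7 replicate 2. In the table of all cells, with its own scores, the groups also overlapped, at 0.386 to 1.05% in RT and 0.467 to 1.22% in cold7. These counts give shares with counting error only.

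**Figure D5:**
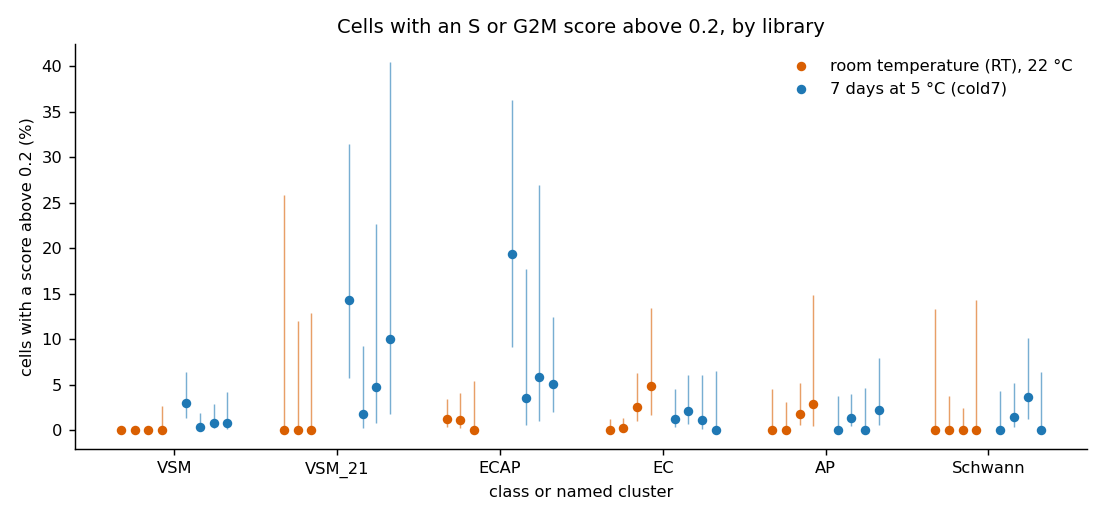
Share of cells with an S or G2M score above 0.2 (percent) per library, for VSM_21 and classes of named cells in RT and cold7; points are libraries with at least 10 cells and lines are 95% Wilson intervals, which cover counting error only. VSM cells lie at 0% in all 4 RT libraries and at 0.338 to 3% in the cold7 libraries.

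Cluster shares are given only as far as they bear on these results. By limma none of 18 coarse clusters (0%) and 2 of 24 named clusters (8.33%), Schwann_14 and VSM_21, differed in share of the library. For the coarse clusters, 2 had an unadjusted p under 0.05. The lowest named differences were those of VSM_27 (log2 odds ratio -2.67; limma, adjusted p = 0.0653) and VSM_1 (-2.15, adjusted p = 0.0563). With a term for replicates 1 and 2 against 3 and 4, VSM_0, VSM_1 and VSM_27 were lower, and AP_9, AP_26, Lymph_EC_19, Pericyte_12, Schwann_14 and VSM_21 were higher. Some clusters had under 10 cells in at least 1 of the 8 libraries and were not compared within themselves; their RT and cold7 cell numbers follow. The coarse ones were 10 (261 and 377), 11 (109 and 141), 12 (183 and 477), 14 (150 and 311), 15 (144 and 159), 16 (170 and 91), 17 (87 and 111) and 18 (16 and 38). The VSM ones were VSM_2 (720 and 102), VSM_20 (111 and 28), VSM_21 (68 and 116), VSM_22 (58 and 62), VSM_27 (120 and 11), VSM_5 (572 and 91) and VSM_7 (330 and 75). The EC, ECAP and Lymph_EC ones were ECAP_4 (497 and 154), EC_11 (331 and 46), EC_23 (127 and 26), EC_28 (38 and 21), EC_32 (25 and 3) and Lymph_EC_19 (84 and 104). The others were AP_25 (52 and 45), AP_26 (56 and 79), AP_9 (125 and 164), Adipo_16 (40 and 32), Adipo_24 (14 and 17), Pericyte_12 (144 and 352), Schwann_14 (135 and 276) and Schwann_18 (162 and 84).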

How the data were processed

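Interscapular brown adipose stromal cells were profiled with the Chromium 3' v3 chemistry, per the labels' protocols. Cell Ranger 3.0.1, STAR and mm10 are named in the submitters' processing notes. Filters, integration, clustering and scoring of the cells were not stated in these sources. The authors' tables hold raw UMI and gene counts for each cell, deposited without normalisation. The deposited mitochondrial share is a fraction and is printed in percent. A deposited complexity ratio (log10 genes over log10 UMIs) entered no comparison. S and G2M scores, phase calls and cluster labels were deposited by the authors, and the score has no unit. Without values of single genes, no doublet call or thinning of cells was possible.

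The library was the replicate. Per library and cluster, with at least 10 cells in each of the 8 libraries, the median UMIs (log2), the median mitochondrial percent plus 0.1 (log2), the log2 odds of S or G2M calls with 0.5 cells added to each side, and the mean scores were computed. The fits used limma (version 3.58.1, R version 4.3.3) on all 4 groups together, and the contrast was cold7 minus RT. P-values are two-sided and were Benjamini-Hochberg adjusted over the clusters of a fit, with a threshold of 0.05. Single values were compared with exact permutation tests over 70 assignments (scipy 1.17.1, tables with pandas 2.3.3). A common mix weights each tested cluster by the mean of its shares in the 8 libraries, with every library counted equally. The fits were also run on simulated data in which every cluster and library varied independently. Such data hold no shift common to the clusters of a library. Limits on a count of 0 use 3 counts and cover counting error only.

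Every tested coarse cluster is named in the text, as are the named clusters past the threshold, the 2 with the highest and the 2 with the lowest differences where fewer than 3 passed, and the untested ones. The comparison, clusters, measures and classes were chosen with earlier results of these data known. Alternatives covered which cells, clusters, libraries and groups entered, the scale and the table of the scores.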

Additional observations from a re-analysis of the deposited data

Results flagged for a closer look

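Of 78 groups of 4 libraries screened, 3 had 1 library far from the other 3, and chance alone does this in about 1 of 20 groups: RT replicate 4 with a median mitochondrial share of 6.01% of all cells, cold7 replicate 2 with a median of 6414 UMIs in named cells, and RT replicate 3 with 71.9% of VSM_0 cells called S or G2M.

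Other results stood out because a cluster's difference between cold7 and RT was tested against the mean difference over the clusters of the same table (limma, each library's mean subtracted, adjusted p below 0.05). Among coarse clusters, the G2M score of cluster 2 was further down by -0.0142 and that of cluster 3 was up by 0.0282. The S score was -0.0323 in cluster 2 and 0.0262 in cluster 3, and the log2 odds of S or G2M calls were 1.34 in cluster 3. On the log2 scale, depth was 0.34 in cluster 1, 0.46 in cluster 2 and -0.49 in cluster 9. Among named clusters, the G2M score was -0.0219 in VSM_0 and -0.0131 in VSM_3, the log2 odds of S or G2M calls were 1.20 in AP_8 and -0.95 in VSM_0, and depth was 0.45 in VSM_3 on the log2 scale. Clusters 2 and 3, VSM_0 and VSM_3 thus departed from the other clusters of their tables on more than 1 measure.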

How the results depend on the processing

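Counts of clusters past the threshold are given as coarse and named. The main counts were 6 and 2 for the G2M score, 2 and 2 for the S score, 4 and 4 for S or G2M calls, 0 and 0 for depth, 0 and 1 for the mitochondrial share, and 0 and 2 for shares of the library. When any 1 of the 16 libraries was left out, they ranged from 4 to 7 and 2 to 3 (G2M score), 1 to 6 and 2 to 3 (S score), 2 to 6 and 3 to 4 (calls), 0 to 1 and 0 (depth), 0 and 0 to 2 (mitochondrial share), and 0 to 1 and 2 to 6 (shares). The S score gave 6 coarse clusters without cold7 replicate 3 and 1 without RT replicate 2 or 4, TN replicate 2 or 4, cold2 replicate 2 or 4, or cold7 replicate 1 or 2. The calls gave 2 without RT replicate 3 or cold7 replicate 2. No named fit could lose cold2 replicate 1, which has no named cells.

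With RT and cold7 alone in the fit, the S score gave 1 coarse cluster, the mitochondrial share 0 named and shares 5 named. With at least 20 cells per library, which left 9 coarse and 4 named clusters (VSM_1, VSM_3 and EC_15 were not tested), the S score gave 5 coarse and 1 named, the G2M score 1 named and calls 1 named. Cells under 20% mitochondrial counts gave S score 5 coarse and shares 6 named. Cells with at least 2000 UMIs gave S score 5 coarse and shares 1 named. Medians in place of means gave G2M score 5 named and S score 6 coarse. Centred log ratios gave shares of 1 coarse and 7 named. With each library's mean subtracted, the G2M score gave 2 coarse, the S score 0 named, depth 3 coarse and 1 named, and the mitochondrial share 0 named. Calls on that scale gave 1 coarse (cluster 3, higher) and 2 named (VSM_0, lower, and AP_8, higher). These directions are relative to the library mean. Without the subtraction, calls did not pass in cluster 3 (log2 odds ratio 0.64, limma adjusted p = 0.133). In AP_8 they differed by 0.25 (limma, adjusted p = 0.593, at least 20 cells per library). On the subtracted scale the G2M score of clusters 8 and 13 lay close to the library mean, at 0.000662 and 0.000918.

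Clusters admitted on 3 of 4 libraries gave G2M score 6 named, S score 4 coarse, calls 7 coarse and mitochondrial share 0 named. With a term for replicates 1 and 2 against 3 and 4 besides, they gave G2M score 10 coarse and 6 named, S score 8 and 6, calls 9 and 8, and depth 1 named. That term with the main clusters gave S score 6 coarse and shares 9 named. Replicates 1 and 2 alone gave S score 8 coarse and 1 named, depth 1 named, mitochondrial share 5 named, and shares 1 coarse and 14 named. Replicates 3 and 4 alone gave S score 1 coarse, calls 0 coarse and 2 named, mitochondrial share 0 named and shares 0 named. The all-cell table's scores gave 4 named for the G2M score, 4 named for the S score and 2 named for calls, with VSM_3 reversed to 0.98. G2M calls alone gave 2 coarse, and on 3 of 4 libraries 2 coarse and 7 named. S calls alone gave 0 and 0 by limma, also on 3 of 4 libraries, with 2 coarse and 1 named at an unadjusted p under 0.05, or 3 and 3 on 3 of 4 libraries. Cells with at least 20% mitochondrial counts gave 1 coarse and 2 named. Sums into classes gave 1 for the G2M score, 0 for the S score, 1 for calls, 1 for S calls alone and 4 for shares. The cause of these differences was not tested.

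The labels do not say that a replicate number marks a shared batch, and in none of the 10 combinations of measure and table did every pair of same-numbered libraries deviate together (correlations from -0.656 to 0.919). With a replicate block, the S score gave 4 coarse clusters and shares gave 8 named clusters; the other counts stayed within 1.5 times the main ones. A library's value for a cluster can rest on as few as 10 cells.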
